A study of Mus musculus with 12 samples.

Results

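The 32 mitotic genes described here were chosen by name as genes of the G2 phase and of mitosis, and each had 1 entry among the 37748 genes of the count table. RNA-seq of gastrocnemius, a hindlimb muscle, was performed on 12 mice of a model of facioscapulohumeral muscular dystrophy (FSHD), 3 in each of 4 groups and 1 library per mouse. The ACTA1-MCM/+ mice, used as controls, carried only the Cre transgene and were not given tamoxifen (TMX). The FLExD/+ mice had the conditional DUX4-fl transgene (FLExDUX4/+) without Cre, and likewise received no TMX. The moderate and severe models were bi-transgenic (FLExDUX4/+;MCM/+) and received TMX by intraperitoneal injection, 1 dose of 5 mg/kg in the moderate model and 2 doses of 10 mg/kg on consecutive days in the severe model. Per the paper, mice were 13 weeks old and the models were sampled on day 9. For the severe model the paper counts days from the first of the 2 injections. The MCM protein is a Cre recombinase that TMX activates, driven by the skeletal muscle promoter of ACTA1, so that DUX4-fl was switched on in a mosaic of myofibers and not in the tissue as a whole. The paper reports that this Cre is also active at a low level without TMX. In its account, bi-transgenic muscle thus expressed some DUX4-fl before the injections, and TMX raised that expression. No control received TMX, so genotype, TMX and DUX4-fl expression cannot be told apart in these comparisons. The FLExD/+ libraries also carry a description of mild pathology in the labels, and were grouped by their title and genotype.

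A cell that enters mitosis switches on a large set of genes within a short time, in late S phase and G2. Cyclin-dependent kinase 1 and its A and B cyclins start the process, Polo and Aurora kinases build the spindle, the kinetochore ties each chromosome to it, and a checkpoint delays separation until every chromosome is attached. The anaphase-promoting complex then marks securin and the cyclins for destruction, separase cuts the sister chromatids apart, and midzone proteins split the cell. The nuclei of adult myofibers do not divide, and in uninjured muscle the resident stem cells, the satellite cells, are mostly quiescent. In injured muscle, satellite cells, macrophages and other mononucleated cells divide. In a bulk library, more dividing cells and more mitotic RNA per cell cannot be told apart.

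The 12 libraries held 23796902 to 29136403 counts each, at which 3 counts in a library correspond to 0.0676 to 0.155 CPM (counts scaled to a library of fixed size, here after adjusting library sizes by the trimmed mean of M-values, TMM). Libraries of the 4 groups differed in composition, with TMM factors of 0.706 to 0.760 in the ACTA1-MCM/+ and FLExD/+ mice, 1.06 to 1.13 in moderate mice and 1.69 to 1.87 in severe mice. The labels were checked on Wfdc3, a gene that DUX4-FL activates in mouse muscle, which read 0.0496 to 0.386 CPM in the 6 single-transgenic mice, 68.0 to 91.8 CPM in moderate and 62.6 to 116 CPM in severe mice. Unlike most of the mitotic genes, Wfdc3 did not pass the test between the severe and moderate models (log2 fold change 0.20 ± 0.22 SE, adjusted p = 0.479). A gene was called when its adjusted p in edgeR's quasi-likelihood test was under 0.05 and its log2 fold change was at least 0.5 in size, with p-values adjusted by the Benjamini-Hochberg method over all 16679 genes tested.

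Most of the 32 mitotic genes had few counts in muscle without induced DUX4-fl, and all 32 rose in both models. The summed level of the 32 genes was 21.4, 18.9 and 23.1 CPM in the ACTA1-MCM/+ mice, 17.6, 20.3 and 19.8 CPM in the FLExD/+ mice, 238, 189 and 200.2 CPM in moderate mice and 708, 627 and 582 CPM in severe mice. The 2 single-transgenic groups overlapped, every moderate mouse lay above them, and every severe mouse lay above every moderate mouse. The mean sum was 9.90 times that of the ACTA1-MCM/+ mice in moderate mice and 30.2 times in severe mice, or 15.1 and 74.9 times on library size alone, without the TMM factors. In the ACTA1-MCM/+ mice the 32 genes had between 0 and 127 counts a library, 11 of the 96 values were 0, and 7 genes had 3 counts or fewer in every mouse. In the severe model the same genes had between 145 and 5802 counts.

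**Figure D1:**
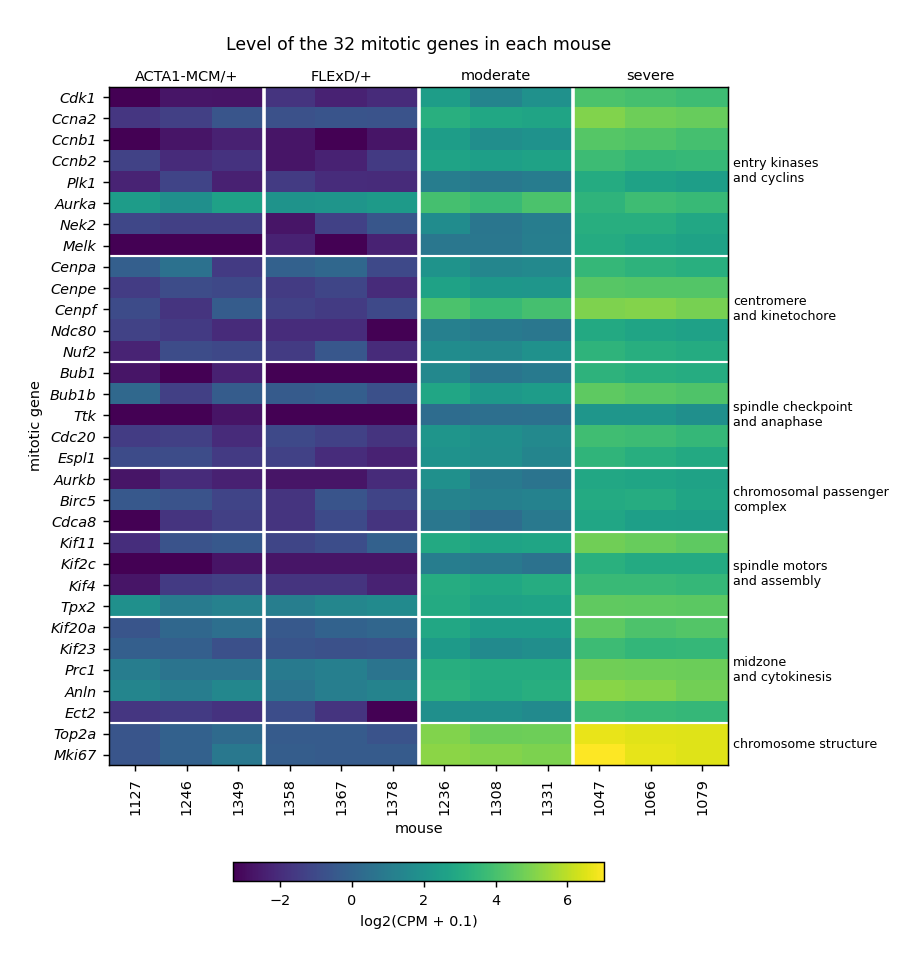
Level of each of the 32 mitotic genes (rows, grouped by role) in each of the 12 mice (columns), as log2 of the CPM plus 0.1 on the colour scale. The 6 single-transgenic mice are dark in nearly every row, with Aurka, Tpx2, Prc1 and Anln the brightest among them, and most rows brighten from the moderate to the severe mice.

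Between the FLExD/+ and ACTA1-MCM/+ mice, 0 of the 32 genes were called by edgeR, where 0.006% of all genes tested were called in either direction. At an unadjusted p under 0.05, 1 of the 32 genes passed by edgeR and by DESeq2, Melk in both, and 0 passed by limma on log2(TPM + 1). The median log2 fold change of the 32 genes was -0.21. These values rested on few counts, and only 13 of the 32 genes passed the filter on low counts when it was applied to these 6 mice alone.

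In the moderate model 32 of the 32 genes were called higher than in the ACTA1-MCM/+ mice, where 24.4% of all genes tested were called higher. Their median log2 fold change was 3.82, or 3.67 with Melk, which had 0 counts in every ACTA1-MCM/+ mouse, set to its lower bound. Over all genes tested the median was 0.04. Leaving out Melk, the changes ran from 1.43 for Tpx2 to 6.70 for Cdk1. For each of the 32 genes, all 3 moderate mice lay above all 3 ACTA1-MCM/+ mice, which was so for 32.6% of all genes tested.

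In the severe model 32 of the 32 genes were again called higher, beside 32.9% of all genes tested. The median log2 fold change was 5.77, or 5.67 with Melk at its bound, and 0.08 over all genes tested. Without Melk the changes ran from 1.33 for Aurka to 8.72 for Cdk1. No severe mouse overlapped an ACTA1-MCM/+ mouse for any of the 32 genes, beside 40% of all genes tested with severe mice higher. All 32 genes passed the filter on low counts, but 19 of them passed through the model mice, so that a difference was built into their being tested. Of the 13 that passed in the single-transgenic mice alone, 13 were called higher in each model, with median log2 fold changes of 2.48 and 4.19.

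Severe and moderate mice differed for 31 of the 32 genes, all called higher in severe mice, beside 17.6% of all genes tested called higher. The median log2 fold change was 1.79, against 0.02 over all genes tested. The groups did not overlap for 31 genes, beside 30.5% of all genes tested with severe mice higher. The remaining gene was Aurka, described below with its class.

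**Figure D2:**
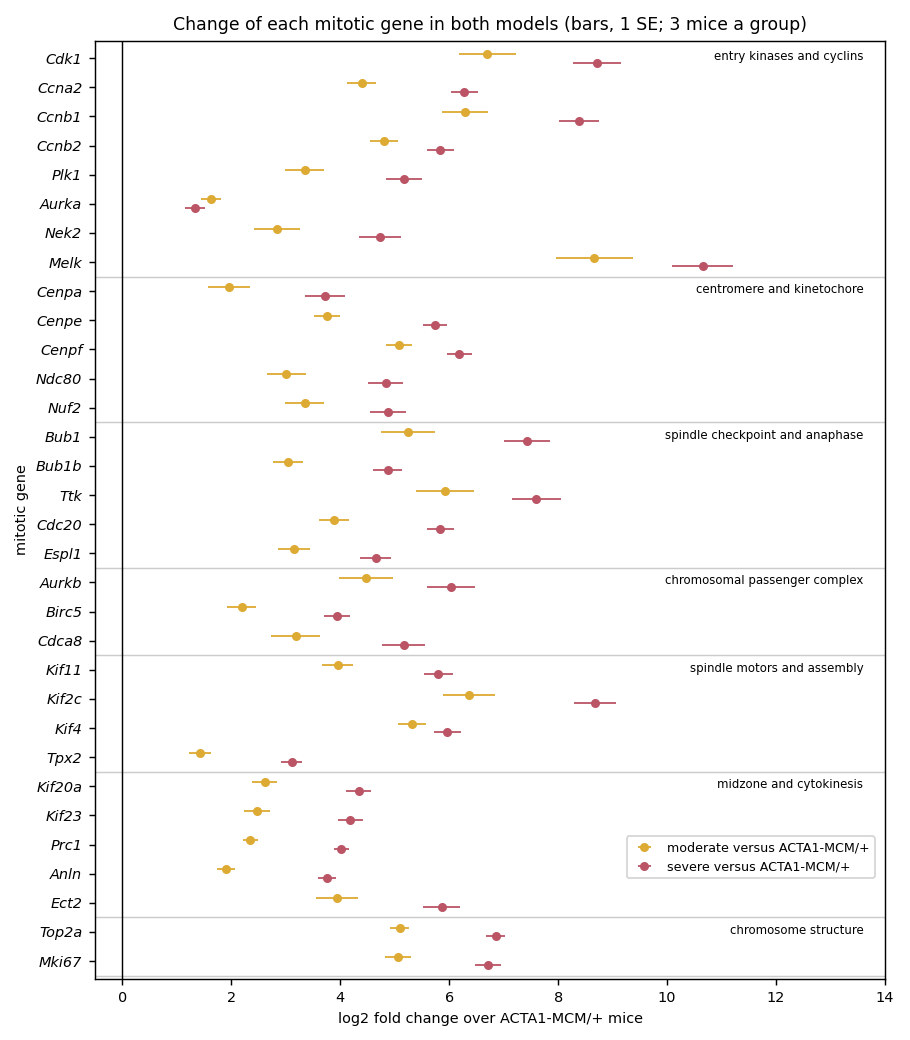
Log2 fold change of each mitotic gene over the ACTA1-MCM/+ mice in the moderate (yellow) and severe (red) models, with 1 SE from the fit of 3 mice a group. Every point lies above 0, the severe point lies to the right of the moderate point for 31 genes and to the left for Aurka, and the points of Melk are fitted against 0 counts and depend on the prior count of the fit.

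The promoters of the genes were read because the genes rose together. Windows from 250 bases before to 50 bases after the RefSeq start (build GRCm38.p6) were given for 28 of the 32 genes, and the entries of Ccna2, Kif20a, Tpx2 and Aurkb were missing. CCAAT boxes, bound by the factor NF-Y, and the cell cycle genes homology region (CHR, TTTGAA or TTCGAA), through which the DREAM and MuvB complexes act on genes of G2 and mitosis, were searched on both strands. Neighbouring motifs may share a base at their ends. A CCAAT lay in the window of 22 of the 28 genes, 78.6%, against 37.4% of all 32817 windows and 38.4% of the 10656 windows of genes tested. TTTGAA lay in 21 windows, 75%, against 17.9% of all windows and 12% of those of genes tested, and TTCGAA in 3, against 1.56% and 2.09%. Both a CCAAT and a CHR were found in 19 of the 28 windows, 67.9%, against 7.51% of all windows and 5.84% of those of genes tested. GGGCGG, the GC box, was in 23 windows, 82.1%, against 61.2% of the windows of genes tested, and TATAAA in 1, against 7.56%. These shares are descriptions, and a match is not a site of binding.

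Windows of 150 bases upstream of the start are shown for Cdk1 (chr10:69352939-69353088, minus strand), the regulator of mitotic entry, Top2a (chr11:99024190-99024339, minus strand) and Mki67 (chr7:135716380-135716529, minus strand), the genes with the highest CPM, Melk (chr4:44300726-44300875, plus strand), at 0 in every ACTA1-MCM/+ mouse, and Aurka (chr2:172370571-172370720, minus strand), the gene not called between severe and moderate mice. They were chosen after the values were seen and are read 5′ to 3′ in the direction of the gene, with CCAAT boxes and CHR motifs of either orientation in capitals.
Cdk1: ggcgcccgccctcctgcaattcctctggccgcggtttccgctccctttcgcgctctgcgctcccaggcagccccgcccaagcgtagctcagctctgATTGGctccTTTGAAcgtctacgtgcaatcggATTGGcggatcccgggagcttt
Top2a: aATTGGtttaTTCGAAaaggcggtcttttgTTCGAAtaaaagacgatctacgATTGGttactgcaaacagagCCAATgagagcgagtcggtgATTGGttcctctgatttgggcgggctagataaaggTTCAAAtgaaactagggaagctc
Mki67: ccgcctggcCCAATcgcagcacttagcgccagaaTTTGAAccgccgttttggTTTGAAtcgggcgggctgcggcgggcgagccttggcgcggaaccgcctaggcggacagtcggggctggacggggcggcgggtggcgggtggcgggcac
Melk: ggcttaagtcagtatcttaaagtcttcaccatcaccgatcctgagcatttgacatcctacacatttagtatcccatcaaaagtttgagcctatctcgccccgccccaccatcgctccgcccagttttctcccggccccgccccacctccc
Aurka: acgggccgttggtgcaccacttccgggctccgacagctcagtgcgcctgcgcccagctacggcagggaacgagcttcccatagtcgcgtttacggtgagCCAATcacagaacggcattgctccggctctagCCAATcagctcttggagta
Cdk1 held 2 CCAAT boxes and 1 CHR here, Top2a 4 and 3, Mki67 1 and 2, and Aurka 2 and 0. The whole window of Melk held neither motif, and that of Aurka held a TTTGAA only after the start. The windows of Cdk1 and Melk end before the most upstream start that GENCODE gives.

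The kinases and cyclins of mitotic entry were 8 of the 32 genes, and 8 were called higher in each model. Here and for the classes that follow, 24.4% of all genes tested were called higher in moderate and 32.9% in severe mice. Cdk1 (ENSMUSG00000019942, chromosome 10 from 69335146 to 69352938), the kinase whose activation starts mitosis, read 0, 0.0482 and 0.0474 CPM in the ACTA1-MCM/+ mice and 0.197, 0.0992 and 0.145 CPM in the FLExD/+ mice. It read 5.40, 2.45 and 3.69 CPM in moderate mice and 17.2, 15.8 and 13.9 CPM in severe mice. The 3 FLExD/+ mice lay above the 3 ACTA1-MCM/+ mice, but on 4, 2 and 3 counts against 0, 1 and 1 (adjusted p = 1). The models lay far above both, without overlap between them. Against 2 counts over the ACTA1-MCM/+ libraries, the moderate and severe levels were 119 times (exact 95% interval 32.7 to 985) and 479 times (132 to 3956) higher, intervals that cover counting error only. The fitted log2 fold changes were 6.70 ± 0.52 (SE, adjusted p = 1.7e-07) and 8.72 ± 0.44 (adjusted p = 8e-10).

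Ccnb1 (ENSMUSG00000041431), cyclin B1 and the partner of Cdk1, was as low, at 0, 0.0482 and 0.0948 CPM in the ACTA1-MCM/+ mice. It reached 5.40, 3.35 and 3.75 CPM in moderate mice and 19.5, 18 and 15.8 CPM in severe mice, again without overlap. Against 3 counts the ratios were 85.5 (29.03 to 416) and 363 (124 to 1763), and the severe log2 fold change was 8.38 ± 0.36 (adjusted p = 2e-10). Melk (ENSMUSG00000035683, chromosome 4 from 44300876 to 44364675), a kinase found mostly in dividing cells, was at 0 in the 3 ACTA1-MCM/+ libraries. It read 1.64, 1.62 and 2.06 CPM in moderate mice and 8.12, 6.89 and 6.23 CPM in severe mice. Against a floor of 3 counts per library it was at least 12.03-fold higher in moderate and at least 48.0-fold higher in severe mice (adjusted p = 8e-07 and 5.2e-09). Ccna2 and Ccnb2, cyclins A2 and B2, Plk1, the Polo kinase, and Nek2, which acts at the centrosome, rose by 2.85 to 4.80 on the log2 scale in moderate and 4.73 to 6.28 in severe mice.

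Aurka (ENSMUSG00000027496, chromosome 2 from 172356190 to 172370535), the Aurora kinase of centrosomes and spindle poles, did not follow this order. It was already read at 5.18, 3.47 and 6.02 CPM in the ACTA1-MCM/+ mice, on 72 to 127 counts, and at 3.84, 4.12 and 4.92 CPM in the FLExD/+ mice. It read 15.6, 12.96 and 16.9 CPM in moderate mice and 10.6, 13.9 and 12.6 CPM in severe mice. Both models lay above all 6 single-transgenic mice, but severe and moderate mice overlapped. The log2 fold change was 1.63 ± 0.18 in the moderate (adjusted p = 3.8e-06) and 1.33 ± 0.18 in severe mice (adjusted p = 1.1e-05), and -0.30 ± 0.16 between them (adjusted p = 0.14). The sign of the last value depended on the scaling between libraries, since on library size alone it was 0.40 (adjusted p = 0.0403) and on log2(TPM + 1) it was 0.45 (adjusted p = 0.0188), both under the fold threshold. A share within a library does not depend on the scaling between libraries. The level of Aurka was 6.997%, 7.37% and 9.22% of the summed level of the other 31 mitotic genes in the moderate mice and 1.52%, 2.26% and 2.21% in the severe mice, without overlap. In the ACTA1-MCM/+ mice the share was 32.05%, 22.4% and 35.2%, so that it also fell where Aurka itself rose. Such a share falls for any gene that rises less than the others, and does not give the sign of the change in Aurka.

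Kif4, Ccnb2 and Cenpf had the next smallest differences between the models, and are set apart here after their values were seen. Kif4, a motor that binds chromosome arms, read 8.49, 7.03 and 8.52 CPM in moderate and 13.03, 12.8 and 11.7 CPM in severe mice, a log2 difference of 0.64 ± 0.15 (adjusted p = 0.0024). For Ccnb2 the difference was 1.04 ± 0.15 (adjusted p = 7e-05) and for Cenpf 1.10 ± 0.15 (adjusted p = 3.8e-05). Each of the 3 was called higher in severe mice, yet at a smaller step than the other 28 genes, which rose by 1.5 to 2.30, an order between genes that was not tested. Seen against the rise from ACTA1-MCM/+ to severe mice, the moderate model held 63.4% of it for Kif4, 47.8% for Ccnb2 and 45.9% for Cenpf. For the 28 other genes it held 20.04% to 33.0%, with a median of 25.4%. On library size alone the shares were lower, at 39.0% for Kif4, 29.5% for Ccnb2, 28.4% for Cenpf and 12.4% to 20.6% for the 28 others, in the same order.

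**Figure D3:**
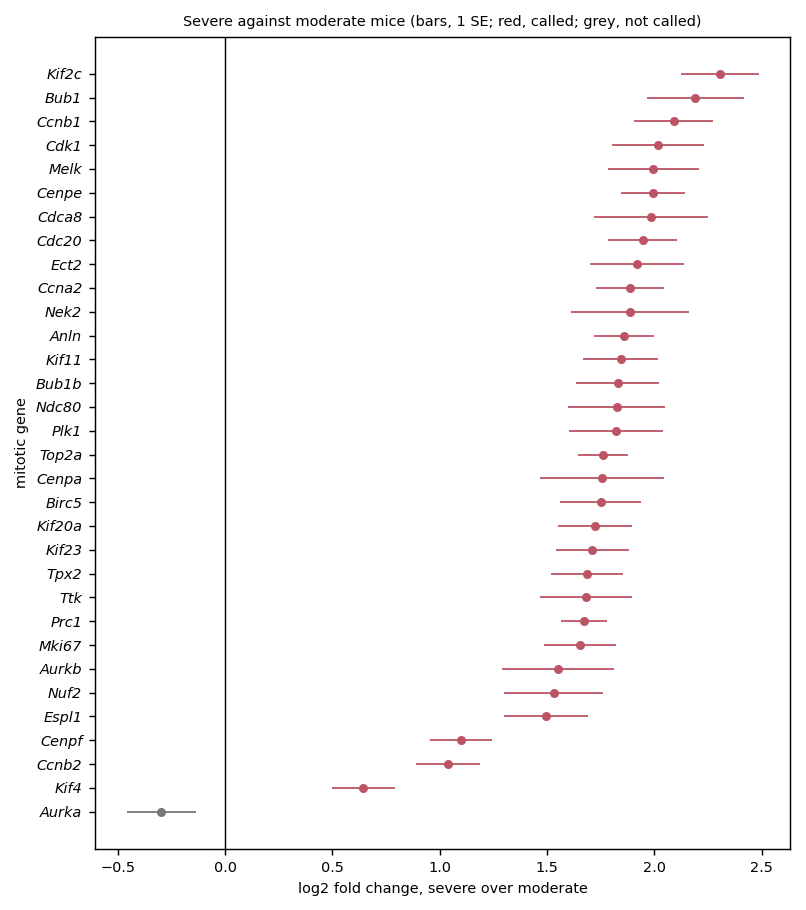
Log2 fold change of each mitotic gene in severe over moderate mice, in order of size, with 1 SE. Aurka alone lies below 0, at -0.30, followed by Kif4, Ccnb2 and Cenpf at 0.64 to 1.10, and the other 28 genes lie between 1.5 and 2.30.

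**Figure D4:**
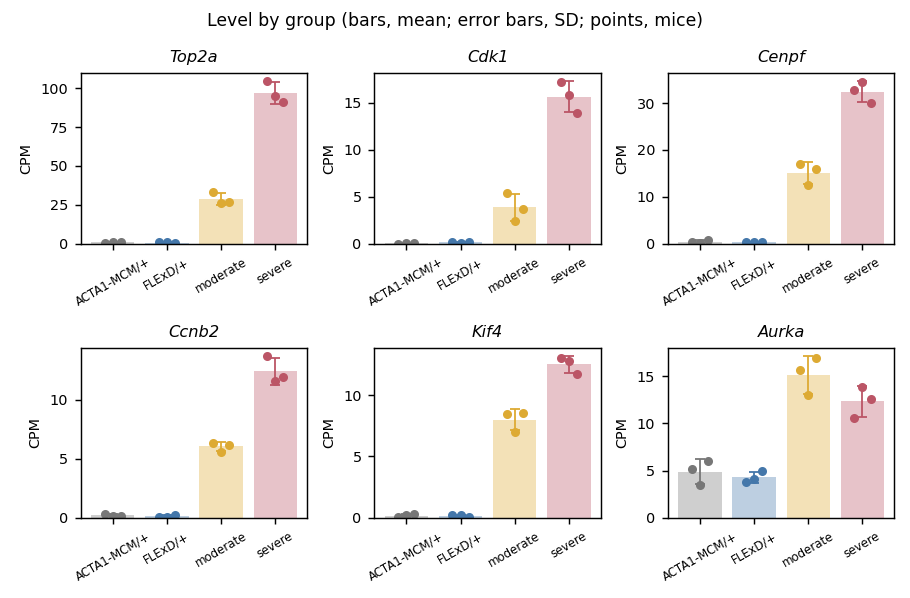
CPM of 6 mitotic genes by group, with each mouse as a point, the mean as a bar and the SD as the error bar (3 mice a group). As a fold from moderate to severe mice, Top2a and Cdk1 rise most of the 6, Cenpf, Ccnb2 and Kif4 less, and in Aurka the points of both models overlap.

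The centromere and kinetochore genes were 5, and all 5 were called higher in each model. Cenpa (ENSMUSG00000029177, chromosome 5 from 30666777 to 30674830), the histone H3 variant that marks the centromere, changed least. It read 0.777, 1.35 and 0.237 CPM in the ACTA1-MCM/+ mice, 3.85, 2.59 and 2.81 CPM in moderate and 11.95, 10.3 and 9.06 CPM in severe mice. The ACTA1-MCM/+ mice, at low values, did not overlap the moderate mice (log2 fold change 1.97 ± 0.39, adjusted p = 0.00077) or the severe mice (3.72 ± 0.36, adjusted p = 6.9e-07). Cenpf (ENSMUSG00000026605, chromosome 1 from 189640606 to 189688086), a large protein of the outer kinetochore, changed most.

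Cenpf read 0.415, 0.193 and 0.711 CPM in the ACTA1-MCM/+ mice, 17.1, 12.5 and 15.9 CPM in moderate and 32.9, 34.4 and 30.1 CPM in severe mice. Its log2 fold change was 5.09 ± 0.24 (adjusted p = 2.9e-09) in moderate and 6.19 ± 0.23 (adjusted p = 7.6e-11) in severe mice. Cenpe, a kinetochore motor, and Ndc80 and Nuf2, partners in the complex that grips microtubule ends, rose by 3.01 to 3.76 on the log2 scale in moderate and by 4.84 to 5.75 in severe mice.

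The spindle checkpoint and anaphase genes were also 5, all called higher in each model. Ttk (ENSMUSG00000038379, chromosome 9 from 83834689 to 83872389), the kinase that recruits the checkpoint to kinetochores, was at 0 in 5 of the 6 single-transgenic mice and had 1 count in the other. It read 1.17, 1.28 and 1.31 CPM in moderate and 4.28, 4.25 and 3.50 CPM in severe mice. Against that 1 count over the ACTA1-MCM/+ libraries the ratios were 76.3 (exact 95% interval 13.4 to 3041) and 246 (43.9 to 9727), wide intervals that follow from the count. Bub1, a checkpoint kinase, had 3 counts over the ACTA1-MCM/+ libraries and 0 in every FLExD/+ mouse. It read 2.71, 1.52 and 1.80 CPM in moderate and 10.3, 8.82 and 8.53 CPM in severe mice, ratios of 41.3 (13.9 to 202) and 188 (64.2 to 914). For either kinase the moderate mice did not overlap the single-transgenic or the severe mice, while the 2 single-transgenic groups overlapped.

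Espl1 (ENSMUSG00000058290, chromosome 15 from 102296266 to 102324357), separase, the protease that opens cohesin at anaphase, had the smallest severe change in this class. It read 0.415, 0.434 and 0.237 CPM in the ACTA1-MCM/+ mice, 3.75, 3.41 and 2.55 CPM in moderate and 10.9, 8.89 and 7.63 CPM in severe mice. The log2 fold changes were 3.15 ± 0.30 (adjusted p = 8.9e-07) and 4.65 ± 0.28 (adjusted p = 3.1e-09). Bub1b, the checkpoint protein BubR1, had the smallest moderate change of the class and rose by 3.05 in moderate and 4.87 in severe mice on the log2 scale. Cdc20, which activates the anaphase-promoting complex once the checkpoint is satisfied, rose by 3.89 and 5.84.

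The chromosomal passenger complex, which corrects faulty attachments and then moves to the midzone, was represented by its kinase Aurkb and by Birc5 (survivin) and Cdca8 (borealin), and all 3 were called higher in each model. Aurkb (ENSMUSG00000020897, chromosome 11 from 69045647 to 69051664) had 1, 3 and 2 counts in the ACTA1-MCM/+ mice. It read 3.60, 1.76 and 1.47 CPM in moderate and 7.24, 6.63 and 6.23 CPM in severe mice, without overlap. The ratios over the ACTA1-MCM/+ mice were 23.4 (exact 95% interval 10.6 to 64.6) and 68.4 (31.3 to 187). Unlike Aurka, the other Aurora kinase, Aurkb was called between the models, at 1.55 ± 0.26 on the log2 scale (adjusted p = 0.00025).

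Birc5 (ENSMUSG00000017716) read 0.622, 0.530 and 0.332 CPM in the ACTA1-MCM/+ mice, 2.40, 2.10 and 2.28 CPM in moderate and 7.91, 8.30 and 6.64 CPM in severe mice. The log2 fold changes of 2.19 ± 0.27 (adjusted p = 9.5e-06) and 3.94 ± 0.25 (adjusted p = 4.4e-09) were the smallest of the complex. Cdca8 lay between them, with log2 fold changes of 3.18 and 5.17.

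Of the spindle motors and assembly factors, 4 of 4 were called higher in each model. Kif2c (ENSMUSG00000028678, chromosome 4 from 117159639 to 117182639), a kinesin that takes microtubules apart to release faulty attachments, had 0, 0 and 1 counts in the ACTA1-MCM/+ mice and 1 count in each FLExD/+ mouse. It read 1.99, 1.72 and 1.40 CPM in moderate and 9.51, 7.90 and 7.92 CPM in severe mice. Fitted against that 1 count in the ACTA1-MCM/+ mice, its log2 fold changes were 6.37 ± 0.48 (adjusted p = 1.1e-07) and 8.67 ± 0.38 (adjusted p = 2.2e-10). Its log2 difference between the models, 2.30 ± 0.18 (adjusted p = 1.2e-06), was the widest of the 32 genes. Tpx2 (ENSMUSG00000027469, chromosome 2 from 152847964 to 152895321), which activates Aurka on the spindle, changed least in this class. It read 3.52, 1.88 and 2.23 CPM in the ACTA1-MCM/+ mice, 8.05, 6 and 6.36 CPM in moderate and 22.7, 21.8 and 21.2 CPM in severe mice. The log2 fold changes were 1.43 ± 0.20 (adjusted p = 3.2e-05) and 3.11 ± 0.19 (adjusted p = 4e-09). Tpx2, unlike Aurka, was also called higher in severe than in moderate mice, by 1.69 ± 0.17 (adjusted p = 4e-06). Kif11, the motor that pushes the spindle poles apart, rose by 3.96 in moderate and 5.80 in severe mice on the log2 scale.

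The midzone and cytokinesis genes were 5 of 5 called higher in each model. Anln (ENSMUSG00000036777, chromosome 9 from 22332012 to 22389188), anillin, a scaffold of the contractile ring, read 2.49, 1.98 and 2.70 CPM in the ACTA1-MCM/+ mice, 10.0, 7.97 and 8.88 CPM in moderate and 36.3, 33.1 and 28.0 CPM in severe mice. Its log2 fold changes were 1.90 ± 0.17 (adjusted p = 5.6e-07) and 3.76 ± 0.17 (adjusted p = 2.3e-10). Ect2 (ENSMUSG00000027699, chromosome 3 from 27097222 to 27153878), the exchange factor that switches on RhoA at the cell equator, changed most. It read 0.207, 0.241 and 0.190 CPM in the ACTA1-MCM/+ mice, 3.44, 3.52 and 3.04 CPM in moderate and 13.5, 12.4 and 11.96 CPM in severe mice, with log2 fold changes of 3.94 ± 0.38 (adjusted p = 1e-06) and 5.86 ± 0.34 (adjusted p = 2.3e-09). Prc1, which bundles midzone microtubules, and the kinesins Kif20a and Kif23 rose by 2.35 to 2.61 in moderate and by 4.02 to 4.34 in severe mice on the log2 scale.

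Top2a and Mki67 made up the class of chromosome structure. Top2a (ENSMUSG00000020914, chromosome 11 from 98992943 to 99024189), the topoisomerase that untangles sister chromatids, read 0.570, 0.819 and 1.09 CPM in the ACTA1-MCM/+ mice, 33.1, 26.1 and 26.4 CPM in moderate and 104, 94.9 and 90.9 CPM in severe mice. The log2 fold changes were 5.09 ± 0.17 (adjusted p = 1.1e-10) and 6.85 ± 0.17 (adjusted p = 8e-12). Mki67 (ENSMUSG00000031004, chromosome 7 from 135689784 to 135716361), whose product Ki-67 coats mitotic chromosomes and is the usual marker of cycling cells, read 0.570, 0.819 and 1.66 CPM in the ACTA1-MCM/+ mice, 37.0, 34.5 and 31.6 CPM in moderate and 131, 101 and 93.1 CPM in severe mice. Its log2 fold changes were 5.06 ± 0.24 (adjusted p = 6.4e-09) and 6.71 ± 0.24 (adjusted p = 1.1e-10). Neither gene overlapped between any 2 of ACTA1-MCM/+, moderate and severe mice.

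Compared per length, as TPM, Top2a was the most abundant of the 32 genes in severe mice, with a mean level of 42.6, followed by Cdk1 at 27.0, Prc1 at 26.3, Ccna2 at 25.9 and Cenpa at 25.01. Espl1 and Ttk were the least abundant, with mean levels of 2.87 and 3.03 TPM. In the ACTA1-MCM/+ mice the highest mean level was that of Aurka, 2.69 TPM.

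Mice of a group differed together across the genes. In the severe model, mouse 1047 had the highest CPM of its group for 29 of the 32 genes and mouse 1079 the lowest for 26. In the moderate model, mouse 1236 was highest for 25 genes and mouse 1308 lowest for 22. In the ACTA1-MCM/+ group the largest such counts were 14 genes with mouse 1349 highest and 15 with mouse 1127 lowest. Mouse 1047 also had the largest TMM factor and mouse 1236 the largest among moderate mice, 1.87 and 1.13, and the part of library composition in this order was not tested.

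Among 63 other genes of mitosis, 60 were called higher and 1 lower in moderate mice, and 62 higher and 1 lower in severe mice. Of all genes tested, 24.4% were called higher and 17% lower in moderate mice, and 32.9% and 27.9% in severe mice. Cep55, a protein of the last step of cytokinesis, changed most in severe mice, from 0.0477 ± 0.0474 CPM (SD, n = 3) in the ACTA1-MCM/+ mice to 6.82 ± 0.74 CPM (log2 fold change 7.0 ± 0.41 SE, adjusted p = 2.4e-09). Its ACTA1-MCM/+ level lay under 3 counts a library, so that Cep55 passed the filter on low counts through the model mice. A difference was thus built into its being tested. How many other genes of this and the following lists passed in that way was not counted. The gene called lower was Pttg1 (ENSMUSG00000020415), securin, which holds separase inactive until anaphase. It read 35.2, 41.8 and 31.6 CPM in the ACTA1-MCM/+ mice, 15.1, 16.7 and 14.6 CPM in moderate and 5.70, 7.74 and 8.74 CPM in severe mice. The 3 groups did not overlap, and the log2 fold changes were -1.23 ± 0.14 (adjusted p = 6e-06) and -2.29 ± 0.15 (adjusted p = 6.4e-09). Pttg1 stayed lower on library size alone, by -0.62 and -0.996, and thus moved against Espl1, the separase it binds, in both models. Between severe and moderate mice, 61 of the 63 were called higher and Pttg1 lower, beside 17.6% of all genes tested called higher and 18.8% lower. That last call of Pttg1, at -1.06, was lost on library size alone (-0.37) and on log2(TPM + 1) (-0.33), both under the fold threshold. The gene not called was Ncapd3, at -0.44 (adjusted p = 0.00332) and at 0.26 on library size alone. Over the ACTA1-MCM/+ mice Ncapd3 rose by 0.94 in moderate and by 0.5002 in severe mice. With median-of-ratios factors its severe value was 0.475, under the fold threshold.

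The calls in the anaphase-promoting complex, which ends mitosis, depended on the scaling. Of the 13 genes listed for it, its activator Fzr1 among them, 0 were called higher and 1 lower in moderate mice, and 3 higher and 3 lower in severe mice. Of all genes tested, 24.4% were called higher and 17% lower in moderate mice, and 32.9% and 27.9% in severe mice. On library size alone 9 of the 13 were called higher in moderate and 10 in severe mice, beside 52.5% and 75.4% of all genes tested, with 4.51% and 6.42% called lower. Anapc5, its most abundant subunit here, read 595 ± 79.1 CPM in the ACTA1-MCM/+, 318 ± 12.6 in moderate and 167 ± 31.8 CPM in the severe mice (log2 fold changes -0.90, adjusted p = 0.000138, and -1.83 ± 0.15, adjusted p = 7.3e-08). On library size alone its log2 fold changes were -0.30 (adjusted p = 0.0662) and -0.54 (adjusted p = 0.00195), so that the moderate call was lost. Fzr1, an activator of the complex, read 6.48 ± 0.71 CPM in the ACTA1-MCM/+ and 11.1 ± 1.94 CPM in the severe mice (log2 fold change 0.78 ± 0.15, adjusted p = 0.00028, and 2.09 on library size alone).

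Genes of replication and the G1/S transition, 16 listed, moved in the same direction as the mitotic genes with a smaller median. In the moderate model 13 were called higher and 1, Ccne2, lower, and in severe mice 15 higher and 0 lower (24.4% and 32.9% of all genes tested were called higher), with median log2 fold changes of 1.46 and 2.69. Rrm2, a subunit of ribonucleotide reductase, changed most, from 0.559 ± 0.249 to 35.4 ± 5.18 CPM in severe mice (log2 fold change 5.98 ± 0.29, adjusted p = 1.1e-09). Ccne2, a cyclin of S phase entry, had the lowest log2 fold change of the list in both models, at -0.53 ± 0.17 in the moderate (adjusted p = 0.0145) and 0.15 ± 0.16 in severe mice (adjusted p = 0.41), and on library size alone the values were 0.08 and 1.46.

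Brakes of the cell cycle moved in both directions. Of 12 listed, 6 were called higher and 3 lower in moderate mice, and 7 higher and 2 lower in severe mice, beside 24.4% and 17%, and 32.9% and 27.9%, of all genes tested. On library size alone 8 of the 12 were called higher in moderate and 11 in severe mice, and 0 lower in either. Of all genes tested, 52.5% and 75.4% were called higher on that scaling, and 4.51% and 6.42% lower. Rbl2 and Cdkn1b were still below the ACTA1-MCM/+ mice in the moderate model, at -0.46 (adjusted p = 0.000286) and -0.44 (adjusted p = 0.000987), under the fold threshold. Cdkn1c, the inhibitor p57, read 12.8 ± 1.14 CPM in the ACTA1-MCM/+, 24.4 ± 6.29 in moderate and 91.5 ± 17.5 CPM in the severe mice (severe log2 fold change 2.83 ± 0.20, adjusted p = 3.8e-08). Cdkn1a, the inhibitor p21, rose by 2.60 ± 0.25 and 3.12 ± 0.25 on the log2 scale (adjusted p = 1.3e-06 and 6.3e-08). Rb1, the retinoblastoma protein, was higher in the moderate than in severe mice, at 129 ± 11.3 and 88.9 ± 10.2 CPM, against 16.7 ± 1.44 CPM in the ACTA1-MCM/+ mice. The sign of its difference between the models turned with the scaling, from -0.53 on the log2 scale (adjusted p = 0.000508) to 0.16 on library size alone (adjusted p = 0.151) and 0.18 on log2(TPM + 1) (adjusted p = 0.149), while over the ACTA1-MCM/+ mice it was higher under each. Rbl2, the pocket protein p130 of the DREAM complex, was the lowest of the list, at -1.36 ± 0.08 in severe mice (adjusted p = 3.2e-09), although on library size alone it was -0.06. Cdkn2a was at 0 counts in every ACTA1-MCM/+ mouse and read 0.716 ± 0.0844 CPM in severe mice.

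Markers of several cell types moved with the mitotic genes. The satellite cell and myoblast markers summed to 33.3 to 39.8 CPM in the ACTA1-MCM/+ mice, 73.4 to 98.7 CPM in moderate and 150.1 to 159 CPM in severe mice. Of 8 listed, 7 were tested, and 4 and 6 were called higher in moderate and severe models. Here and for the lists that follow, the shares of all genes tested were 24.4% and 32.9% called higher, and 17% and 27.9% called lower. Pax7, which defines satellite cells, rose by 1.53 ± 0.22 and 2.71 ± 0.22 on the log2 scale. Differentiating myocyte markers (Myog, the myomaker gene listed as Tmem8c, Myh3 and Myh8) rose in 4 of 4 in each model, summing to 16.0 to 22.0, 323 to 580 and 1223 to 1736 CPM. Macrophage markers rose in 8 of 8, summing to 111 to 137, 499.9 to 641 and 1158 to 1223 CPM, with Cd68 rising by 4.18 ± 0.18 and 5.31 ± 0.18.

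The sum of the neutrophil markers also stepped up without overlap, at low levels. It was 2.54 to 2.75 CPM in the ACTA1-MCM/+ mice, 3.82 to 5.68 in moderate and 9.01 to 10.5 CPM in severe mice. Ly6g was at 0 in every mouse, and 1 and 3 of 4 tested were called higher. Not every marker followed the sum, since 1 of the 4 lay below all ACTA1-MCM/+ mice in the moderate model. Lymphocyte markers summed to at most 1.01, 1.27 and 4.35 CPM, and only Cd4, of 2 tested, was called higher, in severe mice. Of 6 markers of fibro-adipogenic progenitors, 4 were called higher in moderate mice, and 2 higher and 1 lower in severe mice, but on library size alone and on log2(TPM + 1) 6 of 6 were called higher in each model. Endothelial markers were called lower in 3 and 6 of 6, although on library size alone in 1 and 1, erythroid markers in 1 and 3 of 3 tested (0 and 3 on library size alone), and adult fast myofiber markers in 7 and 8 of 8. Acta1, the muscle actin that marks the labelled tissue, was abundant in all groups and lowest in severe mice, at 1842 ± 242 CPM. The part of any of these cell types in the rise of the mitotic genes was not tested.

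**Figure D5:**
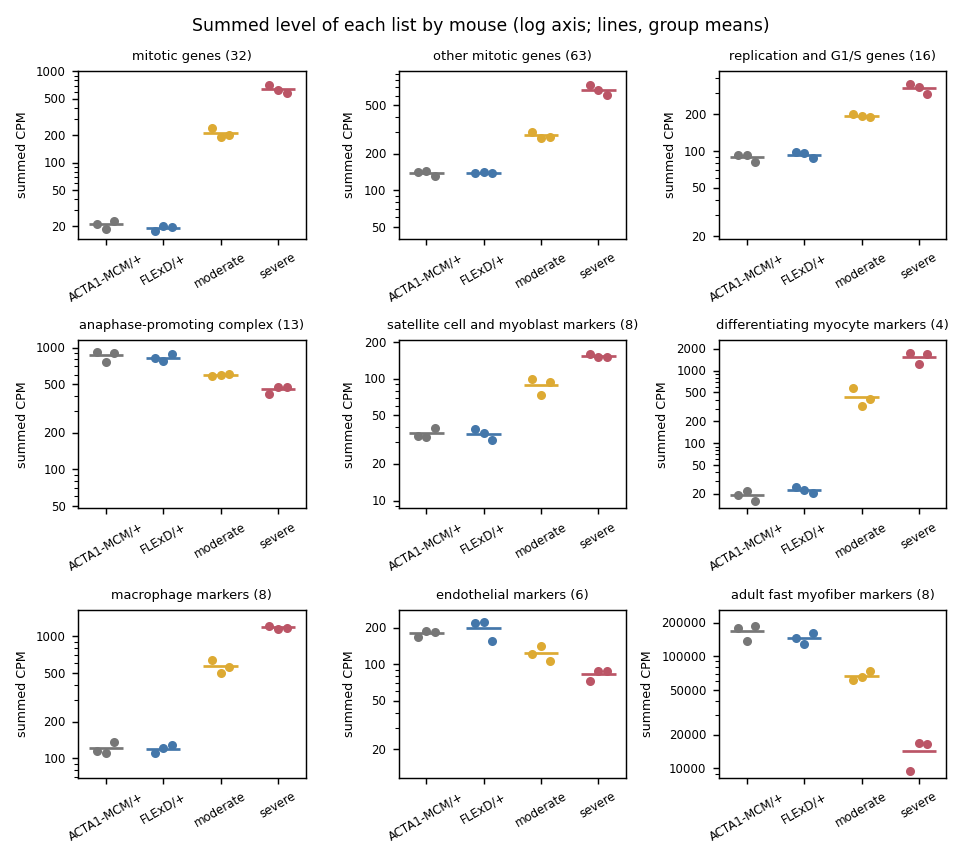
Summed CPM of the 32 mitotic genes and of 8 other lists in each mouse, on log axes, with group means as lines. The mitotic genes, other mitotic genes, replication genes and markers of satellite cells, differentiating myocytes and macrophages step up from single-transgenic to moderate to severe mice. The sums of the anaphase-promoting complex, endothelial and myofiber lists step down on this scaling. In the ACTA1-MCM/+ mice the sum of the complex is mostly Anapc5. The median log2 fold change of the 13 genes listed for the complex is 0.04 in moderate and 0.14 in severe mice.

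The direction of change in the 32 genes over the ACTA1-MCM/+ mice did not hinge on how libraries were scaled. On library size alone, which moved the median of all genes tested by 0.65 in moderate and 1.39 in the severe comparison, 8764 genes were called higher and 752 lower in moderate and 12580 and 1070 in severe mice, in place of 4072 and 2830, and 5480 and 4648. Between severe and moderate mice it moved the median of all genes by 0.72 and gave 9648 higher and 823 lower in place of 2943 and 3139. The 32 genes were called higher in both models under that scaling as well. Several genes share sequence or overlap others, and pseudogenes of Ccnb2 and Kif4 exist. The annotated spans of Ccna2, Cdc20, Kif20a, Kif4, Prc1 and Cdca8 overlap those of protein-coding genes on the other strand (Exosc9, Elovl1, Cdc23, Pdzd11, Rccd1 and 9930104L06Rik). Without strand, reads from a stretch that both genes transcribe cannot be told apart. Whole gene spans were compared, and how far exons overlap was not examined.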

How the data were processed

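Poly(A) RNA of gastrocnemius was sequenced as single reads of 50 bases by the authors. Per the methods and the submitters' processing notes, reads were aligned to mm10 and a merged UCSC, Ensembl and MISO annotation with RSEM 1.2.4 calling Bowtie, and unaligned reads with TopHat2 2.0.8b. The authors deposited expected counts per gene, which were not normalized, and TPM values. Genes listed at 0 counts can carry TPM above 0.

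Expected counts were rounded, filtered with filterByExpr (16679 of 37748 genes), scaled by TMM and fitted over all 12 mice with edgeR 4.0.16 (R 4.3.3, robust quasi-likelihood F-test, Benjamini-Hochberg). SEs were taken from the F statistic. CPM use TMM-adjusted library sizes. Ratios of summed counts carry exact 95% intervals. DESeq2 1.42.0 and limma 3.58.1 on log2(TPM + 1) and log2(TPM + 0.5) were alternatives, along with other scalings, no filter, other fold thresholds, FLExD/+ mice as the reference and leaving out each mouse. The fit was tested on simulated counts first. Libraries of 1 group come from separate mice. Gene positions are from GENCODE M21 on GRCm38, the build of mm10, and promoters from RefSeq (GRCm38.p6).

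The members and gene lists were chosen with earlier results of these data known. All 32 genes are named. Given in most detail are, in each class, the largest and smallest severe change, any gene not called and any with 3 counts or fewer in every ACTA1-MCM/+ mouse. In other lists these are the extremes and genes called against the rest. Values of the FLExD/+ mice are given for only some of these genes. The mild model was not analysed here.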

Additional observations from a re-analysis of the deposited data

How the results depend on the processing

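All 32 genes were called higher in each model, and 31 in severe over moderate mice, under every alternative run, except that 30 passed a log2 threshold of 1 between the models. Of 1312 values of single genes under alternatives, 1309 kept their direction and their side of the threshold, and the 3 that did not were Aurka in severe over moderate mice, at 0.40 on library size alone, 0.45 on log2(TPM + 1) and 0.47 on log2(TPM + 0.5), against -0.30. On library size alone the median log2 fold change of the 32 genes was 4.43 in the moderate, 7.07 in the severe and 2.49 in the severe over moderate comparison. On log2(TPM + 1) it was 1.25, 3.05 and, for FLExD/+ over ACTA1-MCM/+ mice, -0.010, and on log2(TPM + 0.5) it was 1.60, 3.53, -0.016 and, for severe over moderate mice, 2.09. The pseudocount shrinks folds of low genes by construction. Leaving out each mouse gave medians of 3.55 to 4.04 (moderate), 5.47 to 5.85 (severe), 1.69 to 1.94 (severe over moderate) and -0.28 to -0.023 (FLExD/+). With 1 mouse left out, the other mitotic genes called numbered 58 to 60 (moderate) and 62 to 63 (severe). No paired analysis was possible because the labels number each mouse uniquely and share no replicate number between groups. Depth limits the single-transgenic groups, where 7 genes had 3 counts or fewer in every ACTA1-MCM/+ mouse and 7 in every FLExD/+ mouse.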
